A study of Mus musculus with 10 samples.

Results

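The 9 genes described here were listed as genes of long noncoding RNAs retained in the nucleus. They are Malat1, Neat1, Miat, Meg3, Rian, Mirg, Snhg11, Snhg20 and Kcnq1ot1. Where each RNA lies in these cells was not measured, so nuclear RNA below refers to this list. The genes were listed by symbol and found through their Ensembl identifiers among the 53379 genes counted in 10 RNA-seq libraries of mouse hippocampus. All 9 were among the 19754 genes that passed the filter on low counts, although Rian, Mirg, Miat and Snhg11 had 3 counts or fewer in some libraries. The list was chosen by earlier results of these same libraries, namely the levels of nuclear RNAs, so levels and folds of the 9 genes are a description, and their adjusted p-values lend no support to anything.

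The libraries held RNA of cells sorted for EYFP (the study's account also calls them nuclei). Cells had been tagged with AAV9 vectors: the c-Fos promoter made the tetracycline transactivator, which switched on ChR2-EYFP once doxycycline was withdrawn. Male mice, 5 weeks old, received 4 foot shocks of 2 s at 1.5 mA (aversive, 2 libraries) or met a female for 1 h in a clean home cage (appetitive, 2 libraries). Neutral mice were placed in the conditioning cage with neither stimulus (3 libraries), and mock mice stayed in the home cage (3 libraries). Material of 8 mice was pooled per condition by the labels, and the study's methods call mock an untagged control from fewer mice. No source says that replicate libraries had separate pools, so the spread between them may be technical. The neutral libraries were made with another kit and read on another sequencer than all others. Their read length is given as 100 bases, against 40 in all others. Neutral tagging therefore cannot be told apart from kit, sequencer or read length.

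Total counts were from 16968588 to 67650693 per library, which puts a level of 3 counts between 0.0346 and 0.234 CPM (normalized counts scaled to 1 common library size). Myelin mRNA took very different shares of the libraries. Mbp and Mobp, 2 myelin genes, took 26.2% to 36.9% of all counts in mock 1, mock 2, aversive 1 and appetitive 1, 4.74% in mock 3, and 0.766% to 2.32% in the other 5 libraries. Summed levels of 10 neuronal markers were low by comparison, from 76.3 to 1185 CPM, against 7431 to 801300 CPM for 6 oligodendrocyte markers. The highest neuronal sum was in appetitive 1, where Snap25 and Nrgn were at 577 and 514 CPM. Gad1 and Gad2 were at 0 in both appetitive libraries, as were 24.1% of tested genes, and at 0 in some other libraries too. In bulk libraries fewer cells of a type and less RNA per cell cannot be told apart.

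Long noncoding RNAs are transcribed and often spliced like mRNAs, but many are held in the nucleus, where they organise bodies or chromatin. Malat1 is a component of nuclear speckles, where splicing factors gather, and Neat1 is the scaffold of paraspeckles. Meg3, Rian and Mirg lie in a row in the imprinted Dlk1-Dio3 region, are expressed from the maternal chromosome and host small RNAs. Kcnq1ot1 is transcribed from the paternal chromosome antisense to Kcnq1 and silences neighbouring genes in cis. In brain, Meg3, Rian, Miat and Snhg11 are known as neuron-rich transcripts, while Malat1 and Neat1 are found in most cell types. Because mitochondrial mRNAs lie outside the nucleus, the ratio of nuclear RNAs to them is used as a sign of how nuclear a preparation is.

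The study's methods name a SMART-Seq kit, which primes with oligo-dT, and oligo-dT pairs with a run of A. They name no other kit, so how the neutral libraries were primed is not stated there. Malat1 is known to be cut at its 3' end by RNase P beside a genome-encoded run of A, and to carry no ordinary poly(A) tail. Stretches of A inside the transcripts are therefore shown for the gene with most counts and for the gene with the longest run. The longest run of A in Malat1 was 12 bases, 298 bases before the end of its annotated transcript of 6983 bases. In Kcnq1ot1 it was 41 bases, far inside a transcript of 93092 bases. Capitals mark the longest run, with 20 bases on either side (GENCODE M21 transcripts, 5' to 3').
Malat1 (Malat1-201, bases 6654 to 6705): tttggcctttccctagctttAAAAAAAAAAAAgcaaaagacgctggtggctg
Kcnq1ot1 (Kcnq1ot1-201, bases 69545 to 69625): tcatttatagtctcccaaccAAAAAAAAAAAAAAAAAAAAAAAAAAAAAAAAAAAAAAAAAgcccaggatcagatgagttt
Where reads fell along these transcripts was not analysed here, since the counts are per gene.

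Promoter windows from 250 bases before to 50 bases after the RefSeq start (GRCm38.p6) were found for 8 of the 9 genes, Neat1 being the exception. They are shown for Malat1 and Snhg20, whose levels moved together as described further on, and for Meg3. TGACG, the core of the cAMP response element through which neuronal activity drives c-Fos, was present 3 times in the Malat1 window, 2 times in the Meg3 window and 0 times in the Snhg20 window, searching both strands. Of all 32851 promoter windows, 20.8% held it. The AP-1 motif TGANTCA, to which Fos proteins bind, was in 0 of the 9 windows of these genes and in 7.81% of all windows. Capitals mark TGACG or its reverse complement, and in Meg3 also TATAAA, present in 13.6% of all windows. In Snhg20 they mark the GC box GGGCGG read on the other strand, which is present in 35.7% of all windows. The pair of TGACG matches in Meg3 overlap, as do its 2 TATAAA matches. These are letter matches, not measured binding.
Malat1 (chr19:5802623-5802922, minus strand): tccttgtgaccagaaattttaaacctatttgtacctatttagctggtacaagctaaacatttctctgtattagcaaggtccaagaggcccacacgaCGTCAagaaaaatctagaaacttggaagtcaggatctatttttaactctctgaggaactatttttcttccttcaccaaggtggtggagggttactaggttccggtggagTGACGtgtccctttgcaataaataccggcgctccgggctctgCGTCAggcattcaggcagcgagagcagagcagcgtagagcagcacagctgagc
Meg3 (first of 2 RefSeq starts, chr12:109540746-109541045, plus strand): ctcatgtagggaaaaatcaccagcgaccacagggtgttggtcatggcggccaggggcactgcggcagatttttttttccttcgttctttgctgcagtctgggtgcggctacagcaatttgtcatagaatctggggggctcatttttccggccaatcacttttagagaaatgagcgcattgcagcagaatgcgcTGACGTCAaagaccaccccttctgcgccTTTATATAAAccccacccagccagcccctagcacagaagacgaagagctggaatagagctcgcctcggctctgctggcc
Snhg20 (chr11:117076533-117076832, plus strand): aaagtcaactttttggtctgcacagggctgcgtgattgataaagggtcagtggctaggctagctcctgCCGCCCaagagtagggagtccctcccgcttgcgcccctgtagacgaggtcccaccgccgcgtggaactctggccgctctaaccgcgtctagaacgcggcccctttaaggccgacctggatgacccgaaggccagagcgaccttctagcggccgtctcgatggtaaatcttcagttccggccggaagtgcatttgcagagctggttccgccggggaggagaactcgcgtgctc

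Malat1 (ENSMUSG00000092341, chr19:5795690-5802672, minus strand, 1 exon of 6983 bases) dominated the group. It supplied 81.8% to 93.8% of the counts of the 9 genes in each library. Per kilobase of exon it was the highest of the 9 in all 10 libraries, 7.47 to 24.4 times above the next. That next gene was Snhg20 in every library except mock 3, where it was Neat1. Malat1 was at 555, 1261 and 977 CPM in the mock libraries 1 to 3 and at 2366 and 8517 CPM in aversive 1 and 3. It was at 2649 and 7956 CPM in appetitive 1 and 2 and at 4495, 5567 and 3746 CPM in neutral 1 to 3. All 7 tagged libraries thus lay above all 3 mock libraries, while the 3 tagged groups overlapped one another. Group means were 931 ± 355 CPM (SD, n = 3) in mock, 5441 ± 4350 (n = 2) for aversive, 5302 ± 3752 (n = 2) for appetitive and 4603 ± 916 (n = 3) for neutral.

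On the log2 scale of the edgeR quasi-likelihood fit, Malat1 was 2.55 ± 0.67 (SE) above mock for aversive, 2.51 ± 0.67 for appetitive and 2.31 ± 0.62 in neutral libraries. Without aversive 3 the aversive value was 1.34, and without appetitive 2 the appetitive value was 1.32. None of the values from all libraries passed the threshold over all genes in that fit (adjusted p = 0.472, 0.0744 and 0.174, edgeR). The adjusted p of the appetitive value ranged from 0.0011 to 0.325 over its 20 alternatives, of which 5 passed. Scaled by library size alone, appetitive 1 came to 1272 CPM and fell between mock 2 at 1182 and mock 3 at 1419 CPM, so the groups then overlapped. Of the counts outside Mbp and Mobp, Malat1 took 0.202% in appetitive 1 and 0.245% in aversive 1, against 0.0686% to 0.16% in mock and 0.469% to 1.1% in the other 5 libraries.

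Snhg20 (ENSMUSG00000086859, chr11:117076008-117078955, plus strand), a short host gene of a small RNA, had the clearest gap. Its level was 18.5, 24.6 and 15.3 CPM in the mock libraries, 102 and 195 CPM in the aversive and 123 and 208 CPM in the appetitive libraries. In the neutral libraries it was 241, 96.4 and 183 CPM. The lowest tagged library was 3.93 times the highest mock library. Group means were 19.4 ± 4.7 CPM (SD, n = 3) in mock and 148 ± 66.3 (n = 2), 166 ± 60.1 (n = 2) and 173 ± 72.7 (n = 3) for aversive, appetitive and neutral libraries. With library size alone the gap remained, with 59.2 CPM or more in tagged and 23 CPM or less in mock libraries. The fitted differences from mock were 2.93 ± 0.69 (log2, SE) for aversive, 3.09 ± 0.69 for appetitive and 3.16 ± 0.66 for neutral. Of these the appetitive value passed the threshold (adjusted p = 0.0494, edgeR), as it did in 6 of 20 alternatives, with adjusted p from 0.00029 to 0.173. It did not pass without any 1 of the mock or neutral libraries or without appetitive 2.

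Counted against Malat1 in the same library, which needs no scaling, Snhg20 was at 15.7 to 33.3 counts per 1000 Malat1 counts in mock and 17.3 to 53.6 in tagged libraries. These ranges overlapped. Over all 19754 genes, 1.13% had all 7 tagged libraries above the 3 mock libraries, against 2 of the 9 genes here. Since the genes were listed with these libraries known, nothing is read from that difference.

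**Figure D1:**
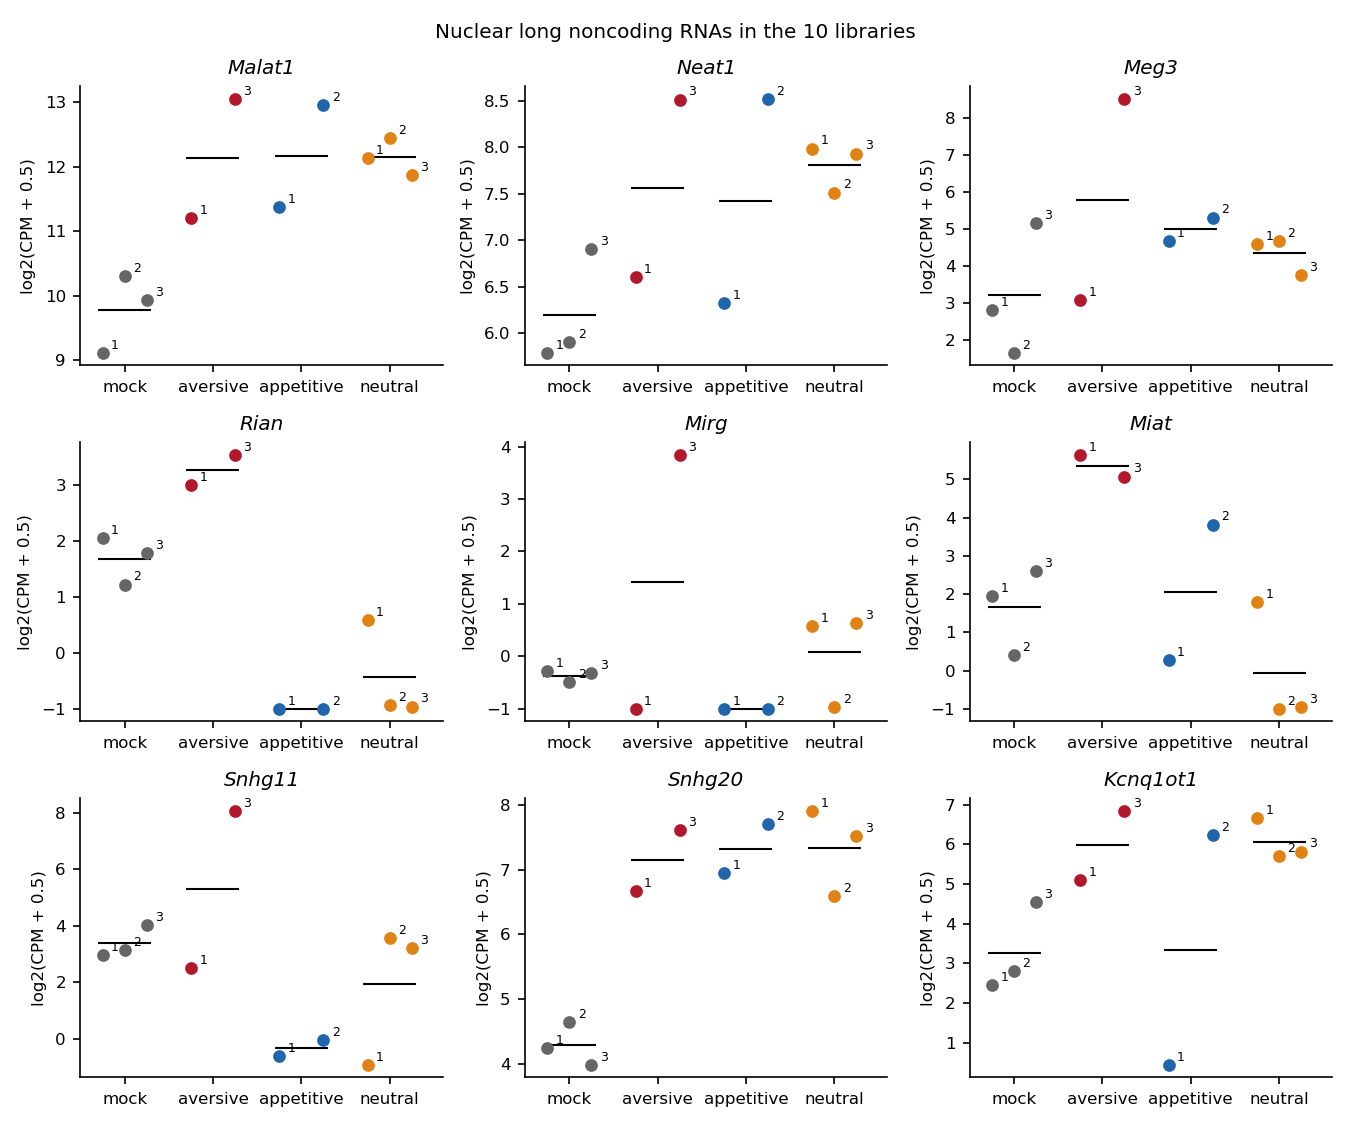
Levels of the 9 long noncoding RNAs, as log2(CPM + 0.5) with its own vertical scale in each panel, in mock, aversive, appetitive and neutral libraries. Each point is 1 library with its replicate number and each bar the group mean. Malat1 and Snhg20 were above mock in all 7 tagged libraries, and Meg3, Mirg and Snhg11 stood out in aversive 3.

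Neat1 (ENSMUSG00000092274, chr19:5824708-5845478, minus strand, 1 exon of 20771 bases) lies beside Malat1 on the chromosome. Mock libraries held 54.8, 59.5 and 119 CPM, aversive libraries 96.9 and 365, appetitive libraries 79.7 and 367, and neutral libraries 253, 182 and 244 CPM. The neutral libraries were all above mock, whereas aversive 1 and appetitive 1 fell inside the mock range. The share of all genes with neutral wholly above mock is not given here. The fitted difference from mock was 1.57 ± 0.80 (log2, SE) for aversive, 1.52 ± 0.80 for appetitive and 1.54 ± 0.74 in neutral, none past the threshold. Without aversive 3 the aversive difference was 0.31, and without appetitive 2 the appetitive difference turned to -0.15. Against Malat1, Neat1 gave 47.2 to 122 counts per 1000 Malat1 counts in mock and 30.1 to 65.1 in tagged libraries, with overlap.

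Miat (ENSMUSG00000097767, chr5:112213228-112229395, minus strand), a transcript that forms nuclear domains of its own, differed in another way. It was at 49.6 and 33.2 CPM in both aversive libraries, above all others. The share of all genes with both aversive libraries above all others is not given here. Against the appetitive libraries alone, 20.1% of all tested genes had both aversive libraries above both. Appetitive libraries had 0.703 and 13.6 CPM, mock libraries 3.34, 0.833 and 5.55 CPM, and neutral libraries 2.95, 0 and 0.0128 CPM. The 2 low neutral libraries held 0 and 1 counts. Aversive stood 3.67 ± 2.25 (log2, SE) above mock and appetitive 2.53 ± 2.51 below aversive, neither past the threshold. The difference of appetitive from aversive was -1.76 without appetitive 1 and -6.01 without appetitive 2. Because counting ignored strand, reads of Gm26953, which shares 2260 exonic bases on the other strand, cannot be told apart from Miat.

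The 3 maternally expressed genes of the Dlk1-Dio3 region were highest in 1 aversive library. Meg3 (ENSMUSG00000021268, chr12:109541001-109571726, plus strand) reached 367 CPM in aversive 3, which is 9.38 times the next library. All others were between 2.65 and 39.1 CPM: 6.52, 2.65 and 35.4 in mock, 7.9 in aversive 1, 25.1 and 39.1 in appetitive and 23.5, 25.1 and 13 in neutral. Its fitted difference between aversive and mock, 3.66 ± 1.42 (log2, SE), became -0.93 without aversive 3. Between appetitive and aversive, -2.55 ± 1.58 became 2.01 without that library.

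Rian (ENSMUSG00000097451, chr12:109603940-109661716, plus strand), which holds 13 snoRNA and 4 miRNA genes within its span, was above mock in both aversive libraries. It was at 7.45 and 11.1 CPM in the aversive libraries, 3.62, 1.82 and 2.91 CPM in mock and 0.993, 0.0231 and 0.0128 CPM in neutral. In both appetitive libraries it had 0 counts. Aversive, mock and neutral libraries did not overlap, in that order. How many of all genes had this order is not given here. Neutral 2 and 3 held 2 and 1 counts, so neutral and appetitive cannot be ranked at this depth. Taking 3 counts as the floor of each library, and the higher of the 2 floors (0.234 CPM), the mean of the aversive libraries was at least 39.5-fold higher than appetitive and that of mock at least 11.9-fold higher. The fitted difference between aversive and mock was 1.73 ± 1.93 (log2, SE), not past the threshold.

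Mirg (ENSMUSG00000097391, chr12:109729764-109749460, plus strand), the host of 14 miRNA genes, split the aversive libraries. It had 694 counts, or 13.9 CPM, in aversive 3 and 0 counts in aversive 1. The highest other library was neutral 3 at 1.05 CPM, the mock libraries were between 0.208 and 0.318 CPM, and both appetitive libraries had 0 counts. A gene without a count in both appetitive libraries was common: 24.1% of tested genes, against 2 of the 9 here, Rian and Mirg. The protein-coding genes of the same region, Dlk1, Rtl1 and Dio3, are expressed from the paternal chromosome. Their summed level was between 0 and 1.19 CPM in all libraries, and 0 of the 1 tested was called in any comparison.

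Snhg11 (ENSMUSG00000044349, chr2:158375638-158386145, plus strand), a snoRNA host that GENCODE M21 lists as protein-coding, repeated the excess in aversive 3. That library had 267 CPM, 16.8 times the next, while aversive 1 had 5.2 CPM. Mock libraries held 7.28, 8.33 and 15.9 CPM and neutral libraries 0.0315, 11.3 and 8.72 CPM. In appetitive 1 and 2 only 2 and 9 counts were found (0.156 and 0.471 CPM), below mock and aversive. Neuronal markers differed among themselves between these libraries. Snap25 and Nrgn were at 577 and 514 CPM in appetitive 1, against 122 and 149 CPM in aversive 3. Syt1, Slc17a7 and Rbfox3 were at 0.547, 0.703 and 1.17 CPM in appetitive 1, against 63.7, 25.7 and 16 CPM in aversive 3. The part of neuronal content in the Snhg11 level was not tested. Both aversive libraries were above both appetitive libraries for 3 of the 9 genes, Rian, Miat and Snhg11, and for 20.1% of all tested genes. The fitted difference of appetitive from aversive was -8.73 ± 2.68 (log2, SE; adjusted p = 0.126, edgeR), and 2 of 19 alternatives passed, with adjusted p from 0.0002 to 0.711. Without aversive 3 it was -4.03. Aversive was 3.69 ± 1.80 above mock, and 1.02 below it without aversive 3.

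Kcnq1ot1 (ENSMUSG00000101609, chr7:143203458-143296549, minus strand, 1 exon of 93092 bases) was at 4.97, 6.45 and 22.8 CPM in mock and 33.8 and 114 CPM in aversive libraries. Neutral libraries had 100.3, 51.2 and 55.8 CPM. Both groups were wholly above mock, and the share of all genes with such gaps is not given here. Appetitive libraries lay at opposite ends, at 0.859 CPM (11 counts) and 74.6 CPM. The fitted differences from mock were 2.70 ± 1.39 (log2, SE) for aversive, 1.72 ± 1.36 for appetitive and 2.60 ± 1.30 in neutral, none past the threshold, and the appetitive one became -3.90 without appetitive 2 and 2.52 without appetitive 1. Without aversive 3 the aversive difference was 1.55, and without mock 3 the 3 differences were 3.73, 2.74 and 3.57. Strand was not recorded, so reads of unspliced Kcnq1, the gene it runs against, would be counted here too. Kcnq1 itself had 0 to 802 counts per library, and 0 in aversive 3, where Kcnq1ot1 had 5714.

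Of 11 protein-coding genes of the Kcnq1 domain, 10 were tested, and 1 was called in the 6 comparisons. It was Osbpl5, which encodes a lipid transfer protein and was lower in appetitive than in neutral libraries (-6.92 ± 1.56 on the log2 scale, adjusted p = 0.0321, edgeR). Its level was 21.1 to 23.7 CPM in neutral, 8.64 to 19.6 in mock, and 0.156 to 0.28 in the 4 aversive and appetitive libraries.

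Across all comparisons, 1 of the 54 values of the 9 genes passed an adjusted p of 0.05, Snhg20 in appetitive against mock. The share of all tested genes that passed was 1.98% in appetitive against mock, 0.0861% in neutral against mock and 0% in aversive against mock. It was 0.0405% in aversive against neutral, 6.17% in appetitive against neutral and 1.8% in appetitive against aversive. In aversive against mock edgeR called no gene at all, while 1968 genes, 3 of the 9 among them, had an unadjusted p under 0.05, and DESeq2 called 1460 genes. The lowest adjusted p of the 9 genes was 0.242 in aversive against neutral, 0.194 in appetitive against neutral and 0.126 in appetitive against aversive (edgeR).

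In direction, all 9 genes had a positive fitted difference in aversive against mock, with a median of 2.93 (log2) where the median of all tested genes was -0.13. Without aversive 3, Meg3 and Snhg11 were negative there, at -0.93 and -1.02. Malat1, Neat1, Miat, Rian, Snhg20 and Kcnq1ot1 stayed positive, and Mirg had 0 counts in aversive 1. In appetitive and in neutral against mock, 6 of 9 were positive, with medians of 1.14 and 1.30 where all genes had -1.45 and 0.08. Between appetitive and aversive 1 of 9 was positive, with a median of -2.53 against -0.48 for all genes. The 3 tests against mock share the mock libraries. With Rian and Mirg set at the bounds that their floors allow, these medians were the same.

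**Figure D2:**
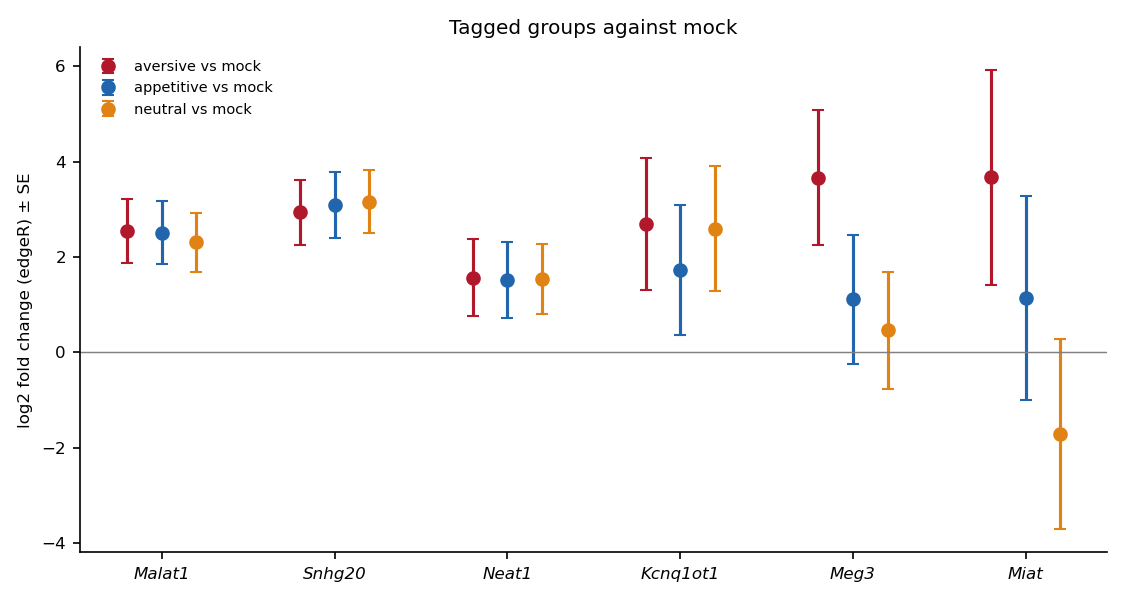
Fitted log2 fold changes (edgeR, points, with bars of 1 SE) of 6 of the 9 genes in aversive, appetitive and neutral libraries against the shared mock libraries. Malat1 and Snhg20 lay between 2.31 and 3.16 in all 3 groups, while Meg3 and Miat ranged from -1.72 to 3.67. Rian, Mirg and Snhg11 are not drawn. All of them were negative in appetitive against mock and positive in aversive against mock.

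To judge how nuclear the material was, the summed counts of the 9 genes were set against 13 mitochondrial mRNAs, which stay in the cytoplasm. Of these 13, 6 had fewer than 100 counts in every library and added little to the sum, and the other 7 had at least 1000 counts in each. Why those 6 were so low was not tested. The mitochondrial shares and ratios below thus rest on 7 genes and may be too low. Mitochondrial mRNA outnumbered the nuclear RNAs in all 10 libraries, by 1.9 to 45.6 counts for each count of the 9 genes. Mitochondrial mRNAs were 1.74% to 8.79% of all counts, and the 9 nuclear RNAs 0.0563% to 1.26%. The log2 ratio was -5.51, -4.46 and -3.33 in mock, -4.52 and -2.19 for aversive, -5.11 and -0.93 for appetitive and -4.02, -1.49 and -2.65 for neutral libraries. Every tagged group overlapped mock. The means were -4.43 ± 1.09 (SD, n = 3) in mock, -3.35 ± 1.65 (n = 2) for aversive, -3.02 ± 2.96 (n = 2) for appetitive and -2.72 ± 1.27 (n = 3) for neutral.

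Against 20 mRNAs of cytosolic ribosomal proteins the libraries fell into a different order. The log2 ratio was -1.08 to 0.91 in mock, 0.57 and 3.03 for aversive, -0.16 and 3.08 for appetitive and 2.58 to 3.19 for neutral libraries. Neutral libraries were all above mock by this measure, and aversive 1 and appetitive 1 again fell within the mock range. By both measures appetitive 2 was more than 3 log2 units above appetitive 1.

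**Figure D3:**
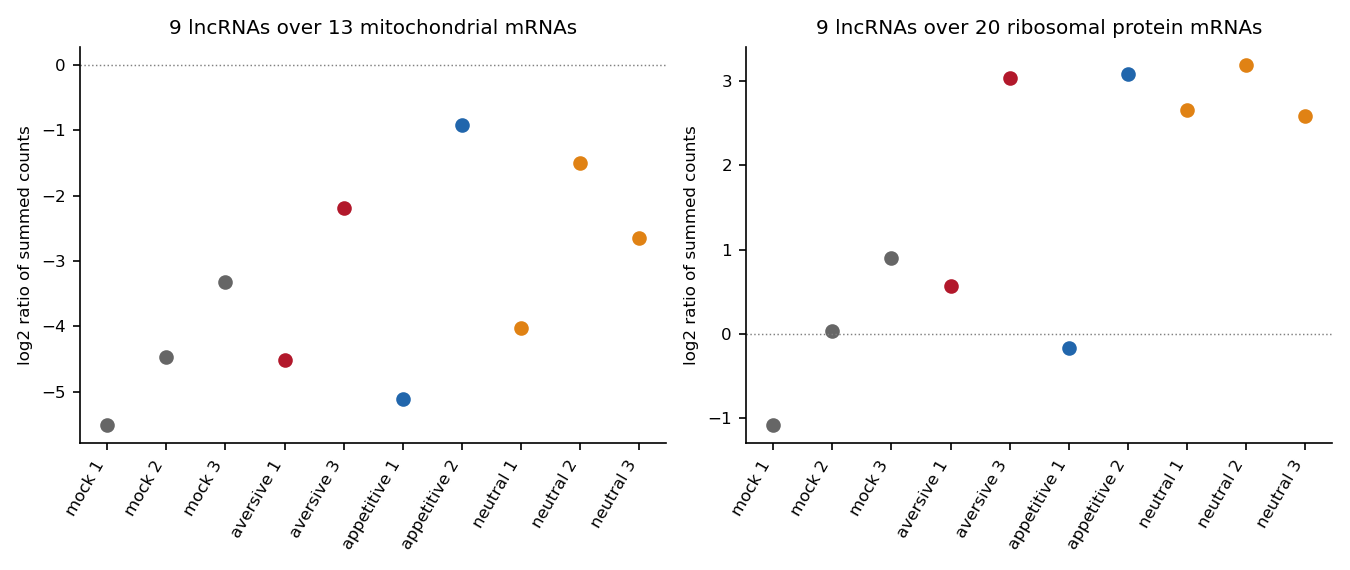
Log2 ratio of the summed counts of the 9 nuclear RNAs to those of 13 mitochondrial mRNAs (left) and of 20 ribosomal protein mRNAs (right) in each library, coloured by group. The left ratio was below 0 in all 10 libraries, and mock 1 was lowest in both panels.

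The nuclear RNA share was low where the myelin share was high, and it was also low in mock 3. Both are shares of the same total, so a larger myelin share leaves less for other RNAs. The 9 genes made 0.0563% to 0.196% of counts in the 4 libraries with most Mbp and Mobp, 0.173% in mock 3 and 0.528% to 1.26% in the other 5. With these 2 myelin mRNAs taken out of the total, the share was 0.0809% to 0.182% in mock, 0.276% and 1.28% for aversive, 0.219% and 0.99% for appetitive and 0.532% to 0.77% for neutral libraries, so every tagged library was then above every mock library. Within the myelin-rich libraries, aversive 1 and appetitive 1 were above mock 1 and 2. What part myelin or other cytoplasmic RNA has in the levels of the 9 genes beyond this was not tested.

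**Figure D4:**
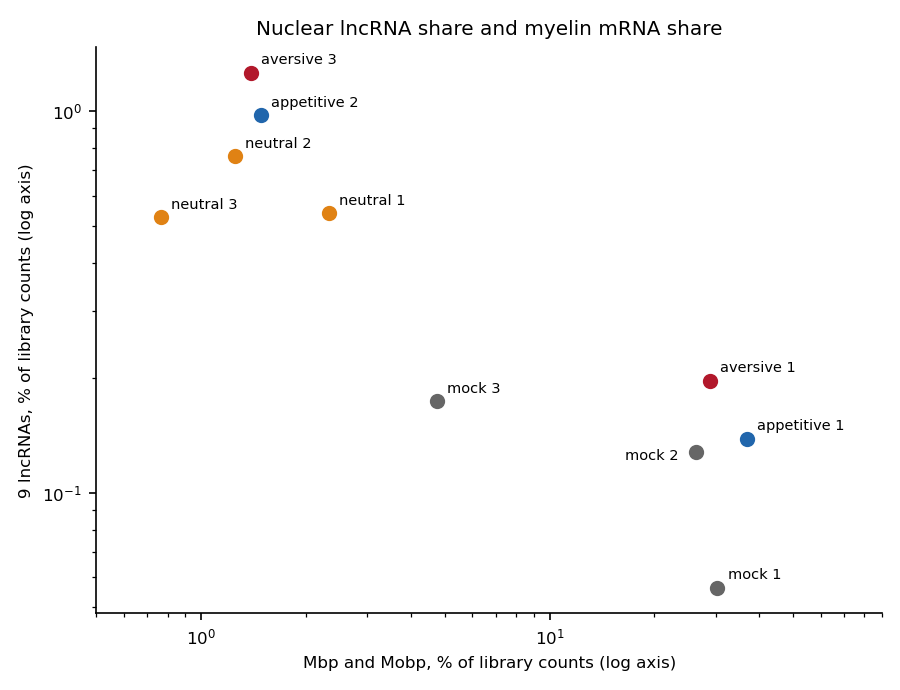
Share of all counts from the 9 nuclear RNAs against the share from the myelin genes Mbp and Mobp, both on log axes, with 1 point per library coloured by group. The 4 libraries with 26.2% to 36.9% myelin counts had at most 0.196% nuclear RNA counts, and the 5 with at most 2.32% had at least 0.528%.

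Other RNAs of known location give a background to these values. Of 10 further nuclear long noncoding RNAs, among them Tug1 and Firre, 0 were called in any comparison, and their median difference was 0.7 (log2) for aversive, 0.44 for appetitive and 1.27 in neutral against mock. Their summed level was 106 to 185 CPM in mock and 107 to 594 CPM in tagged libraries. Of 10 spliced long noncoding RNAs that are exported, such as Gas5, 9 were measured and 0 were called. Their medians against mock were 1.27, 0.19 and -1.11 in the same order. In neutral against mock, 7 of 9 exported RNAs were negative and 6 of 10 nuclear ones positive. In aversive against mock, 8 of 9 exported and 6 of 10 nuclear RNAs were positive. In appetitive against mock, 5 of 9 and 7 of 10 were. The 2 lists thus did not differ in the same way in all 3 groups. For scale, the medians of the 20 ribosomal protein mRNAs were 0.53, 0.89 and -0.11, and those of the 7 tested mitochondrial mRNAs 1.24, 1.36 and 0.99.

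The mRNAs of proteins that work with these RNAs were counted too. Of 12 for paraspeckle proteins, the partners of Neat1, 0 were called in the 6 comparisons, and their median differences from mock were 0.17 for aversive, 0.45 for appetitive and 0.35 in neutral. Of 13 for nuclear speckle proteins, found in the bodies that hold Malat1, 0 were called, with medians of 0.27, 0.71 and 0.83.

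Markers of other cell types also moved between the groups. Summed choroid plexus markers were 21600 to 132700 CPM in neutral and 848 to 13740 CPM in all other libraries. Summed astrocyte markers were 150 to 332 CPM in neutral and 3069 to 14270 CPM elsewhere. Of 6 astrocyte markers, 3 were lower in neutral than in mock and higher in appetitive than in neutral (Slc1a2, Aldoc and Slc1a3), and 1, Slc1a2, was higher in aversive than in neutral. In appetitive against neutral, 3 of 4 choroid plexus markers were called lower (Ttr, Folr1 and Clic6), and 2 of 10 neuronal markers, Snap25 and Nrgn, were called higher. Of those 10 neuronal markers, 5 were positive and 5 negative in that comparison. Their median was -0.715 (log2), against -0.914 for all tested genes. None of the oligodendrocyte, precursor, endothelial, ependymal, fibroblast or red blood cell markers was called by edgeR. Their part in the levels of the 9 genes was not tested.

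By the root mean square difference between log2 profiles over the 10 libraries, each centred on its mean, Neat1 and Snhg20 were nearest to Malat1 among the 9, at 0.617 and 0.623 log2 units. Snhg11 was farthest from Malat1, at 2.8. Of 9626 genes with a mean of at least 10 CPM, those outside the list that were nearest to Malat1 were Izumo4 (0.513), Ndufaf3 (0.541), Tmem234 (0.618), Ssbp1 (0.629) and Ssna1 (0.635), all protein-coding. Nearest to Meg3 were Zfhx2 (0.974), 3110039I08Rik (1.07), Mga (1.1), Cep95 (1.11) and Ddhd1 (1.11). Of these 5, 4 were highest in aversive 3, as Meg3 was.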

How the data were processed

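RNA of sorted hippocampal material was measured in 10 RNA-seq libraries. Per the labels and the study's methods, the authors aligned only the leading 40 bp per read with STAR to mm10 (GRCm38) and counted per Ensembl gene with featureCounts of Subread, ignoring strand. The deposited values are raw counts for 53379 genes, of which 53274 matched GENCODE M21. The reads were not analysed here.

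Groups came from the labels. The 9 genes, the other gene lists and the rule for named genes were chosen with earlier results of these data known. The rule names the 9 genes, called genes of the lists and the 5 nearest profiles to Malat1 and Meg3 (log2(CPM + 0.5)). Libraries were scaled by TMM (factors 0.48 to 1.45), low genes dropped by filterByExpr, and all libraries fitted together as 4 groups by quasi-likelihood in edgeR 4.0.16 (R 4.3.3), with p adjusted over 19754 genes by Benjamini-Hochberg. The script was tested on simulated data. Standard errors came from the F statistics. Ratios used raw counts and no test. DESeq2 1.42.0, other scalings, filters and sample sets were alternatives. Scaling without Mbp and Mobp, and a fit without the neutral libraries, were added after the data were seen.

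Replicate numbers did not pair the samples: deviations of same-numbered libraries correlated between -0.062 and 0.188. Some results under these rules are not reported here. The floor is 3 counts and covers counting error only.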

Additional observations from a re-analysis of the deposited data

Results flagged for a closer look

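No group held 4 libraries, so single libraries could not be judged as outliers. Rian is given because its aversive and appetitive libraries lay on opposite sides of mock. Its mean was 9.26 CPM in the aversive libraries, both above the highest mock library, and 0 CPM in the appetitive libraries, both below the lowest mock library. The share of all genes with such a split is not given here, and 24.1% of tested genes had 0 counts in both appetitive libraries. The difference between the 2 groups did not pass the threshold in edgeR (adjusted p = 0.144), while DESeq2 called it.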

How the results depend on the processing

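Over all genes, edgeR and DESeq2 called 356 and 3986 genes in appetitive against aversive, 391 and 4803 in appetitive against mock, 1218 and 6053 in appetitive against neutral, 0 and 1460 in aversive against mock, 8 and 3388 in aversive against neutral and 17 and 1589 in neutral against mock. Of the 9 genes, DESeq2 called 1 in aversive against neutral (Rian), 1 in appetitive against neutral (Mirg), 3 in appetitive against aversive (Snhg11, Mirg and Rian), 2 in aversive against mock (Snhg20 and Malat1), 5 in appetitive against mock (the same 2 with Snhg11, Mirg and Rian) and 1 in neutral against mock (Snhg20), and gave Miat no adjusted p. Without a filter 1 gene was called in appetitive against aversive (Snhg11) and 1, Malat1, in each tagged group against mock. In appetitive against mock Malat1 (adjusted p = 0.0011, edgeR) then took the place of Snhg20 (0.0563). With at least 10 counts in every library 1, Snhg20, was called in neutral against mock.

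In appetitive against mock, where 1 gene was called, 0 were called with DESeq2 size factors, with library size alone, with at least 10 counts in every library, with the replicate block, without the neutral libraries or with scaling without Mbp and Mobp, and 4 with the 2 groups alone. Leaving out 1 library gave 0 to 2 genes there, 0 to 1 in appetitive against neutral and 0 to 1 in appetitive against aversive (Kcnq1ot1 without appetitive 2 in both). The block called 0 of the 9 genes in all comparisons, and with it Miat in appetitive against aversive was -0.07. Why the tools and settings differ was not tested.

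Of 19 log2 fold changes given for the 9 genes, 5 changed sign, each when 1 library was left out. In appetitive against mock, Neat1 ranged from -0.15 (without appetitive 2) to 2.04 and Kcnq1ot1 from -3.90 (without appetitive 2) to 2.74. Meg3 ranged from -3.63 to 2.01 (without aversive 3) in appetitive against aversive and from -0.93 (without aversive 3) to 5.40 in aversive against mock, where Snhg11 ranged from -1.02 (without aversive 3) to 4.59. With library size alone 1 gene, Snhg20, kept all tagged libraries above mock. The mean log2 ratio to mitochondrial mRNA without Malat1 was -7.39 for mock, -6.35 for aversive, -6.65 for appetitive and -6.10 for neutral libraries. To ribosomal protein mRNA, with all 9 genes, it was -0.046, 1.80, 1.46 and 2.81.

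With 2 or 3 libraries a group and a biological coefficient of variation of 122%, a value that missed the threshold does not show that groups were alike.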
